A study of Mus musculus with 48 samples.

Results

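The Slc25a genes encode the mitochondrial carrier family, and 47 of the 24453 genes with exon values and 46 of the 20771 genes with intron values carried a symbol that begins with Slc25a and a digit. Slc25a2 had exon values only. They were read in livers of Nono-/- mice and of wild-type mice, all C57BL/6 and 14 weeks old, on a 12 h light and 12 h dark cycle. Before collection the animals had been given food in the dark phase alone for a week. Livers were taken at 12 zeitgeber times (ZT, with lights on at ZT0), and each sample was a pool of 2 mice that gave 1 library of total RNA and 1 of nuclear RNA. There were 12 libraries each of Nono-/- total RNA, wild-type total RNA, Nono-/- nuclear RNA and wild-type nuclear RNA, 48 in all, and the labels give no promoter or cell type for the Nono mutation. Nono encodes a nuclear protein that binds RNA and DNA and is found in paraspeckles.

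Most mitochondrial carriers sit in the inner mitochondrial membrane and exchange a solute of the matrix for one of the cytosol. In hepatocytes they feed the urea cycle with ornithine and aspartate, export citrate for fatty acid synthesis, bring in acylcarnitines for fat oxidation and trade ADP and phosphate for ATP. A few members work elsewhere, such as Slc25a17 in peroxisomes and Slc25a46 on the outer mitochondrial membrane. The family's carriers are made in the cytosol and are inserted into the inner membrane by the TIM22 complex.

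Values are FPKM, reads scaled to the length of a gene's exons or introns and to the depth of the library, so levels can be compared between genes. Exon signal of total RNA is mostly mature mRNA and intron signal of nuclear RNA is mostly unspliced transcript. Depth was 9.91 to 28.9 M reads per library (M, mega). Nono exons lay at 0 to 0.091 FPKM in Nono-/- total RNA against 8.74 to 10.7 FPKM in wild-type total RNA, and at 0 to 0.032 FPKM against 2.05 to 2.73 FPKM in nuclear RNA, so every library fitted its genotype label. Introns took 18.5% ± 2.41 of the reads in Nono-/- total RNA and 22.1% ± 1.72 in wild-type total RNA (SD, n = 12 each). A pair of libraries stood apart from the rest of their groups over all genes. The wild-type total RNA library of ZT8 held the lowest value of its group for 25.6% of all tested genes and the highest for 24.6%. In Nono-/- nuclear RNA the library of ZT2 held the lowest for 25.2% and the highest for 24.4%. Of hepatocyte markers 0 of 6 passed the genotype test in total RNA exons with limma, at a summed level of 32475 to 48533 FPKM in Nono-/- and 27778 to 45717 FPKM in wild type. Of Kupffer cell markers 5 of 7 were higher in Nono-/-, with a summed level of 81.8 to 217 FPKM in Nono-/- and 64.7 to 169 FPKM in wild type, and 1 of 4 stellate cell markers was. In nuclear RNA exons 1 of 6 hepatocyte markers was lower, and 4 of 6 Kupffer cell markers and 1 of 3 stellate cell markers were higher. In total RNA exons markers of endothelial cells (5), erythroid cells (5) and cholangiocytes (1) did not pass, those of muscle, brown fat and lymphocytes were too low to be tested, and the germ cell markers Prm1 and Tnp1 were at 0 in all libraries. The part of the Kupffer cell markers in the genotype differences of the family was not tested. In liver tissue, fewer cells of a type and less RNA per cell cannot be told apart.

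The family's summed exon level in total RNA was 847 ± 85.5 FPKM in Nono-/- and 854 ± 85.3 FPKM in wild type (SD, n = 12 each). The 10 highest members held 77.7% of that sum in Nono-/- and 76.3% in wild type. At the top stood Slc25a15, the ornithine carrier of the urea cycle, with 99.3 ± 13.7 FPKM in Nono-/- and 99.8 ± 17.7 FPKM in wild type. Slc25a47, a carrier found mainly in liver, averaged 91.3 ± 53.8 FPKM in Nono-/- and 94.6 ± 47.0 FPKM in wild type. The phosphate carrier Slc25a3 averaged 89.3 ± 9.84 FPKM in Nono-/- and 89.5 ± 7.61 FPKM in wild type. Slc25a13, the aspartate-glutamate carrier citrin, followed with 82.1 ± 10.9 FPKM in Nono-/- and 77.3 ± 9.31 FPKM in wild type.

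The next 6 in wild type were Slc25a39, Slc25a5, Slc25a25, Slc25a20, Slc25a1 and Slc25a17. Slc25a39, which imports glutathione, averaged 68.6 ± 19.1 FPKM in Nono-/- and 71.8 ± 23.4 FPKM in wild type. The ADP/ATP carrier Slc25a5 averaged 57.8 ± 10.004 FPKM in Nono-/- and 52.9 ± 10.4 FPKM in wild type. Slc25a20, the carnitine-acylcarnitine carrier, averaged 53.5 ± 9.45 FPKM in Nono-/- and 46.8 ± 5.79 FPKM in wild type. The citrate carrier Slc25a1 averaged 38.5 ± 8.15 FPKM in Nono-/- and 39.1 ± 8.54 FPKM in wild type. For 7 of the first 10 neighbouring pairs in the wild-type order, the gap between the means was smaller than the larger of the 2 SDs, so the order among them is loose. Some close relatives differed widely in level. Slc25a5 stood over its ADP/ATP carrier relatives Slc25a4, at 3.51 ± 1.47 FPKM in Nono-/- and 2.62 ± 0.490 FPKM in wild type, and Slc25a31, which is known from testis and lay under 0.1 FPKM in wild type. Slc25a13 likewise stood over its close relative Slc25a12, at 5.09 ± 0.593 FPKM in Nono-/- and 4.58 ± 0.657 FPKM in wild type.

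**Figure D1:**
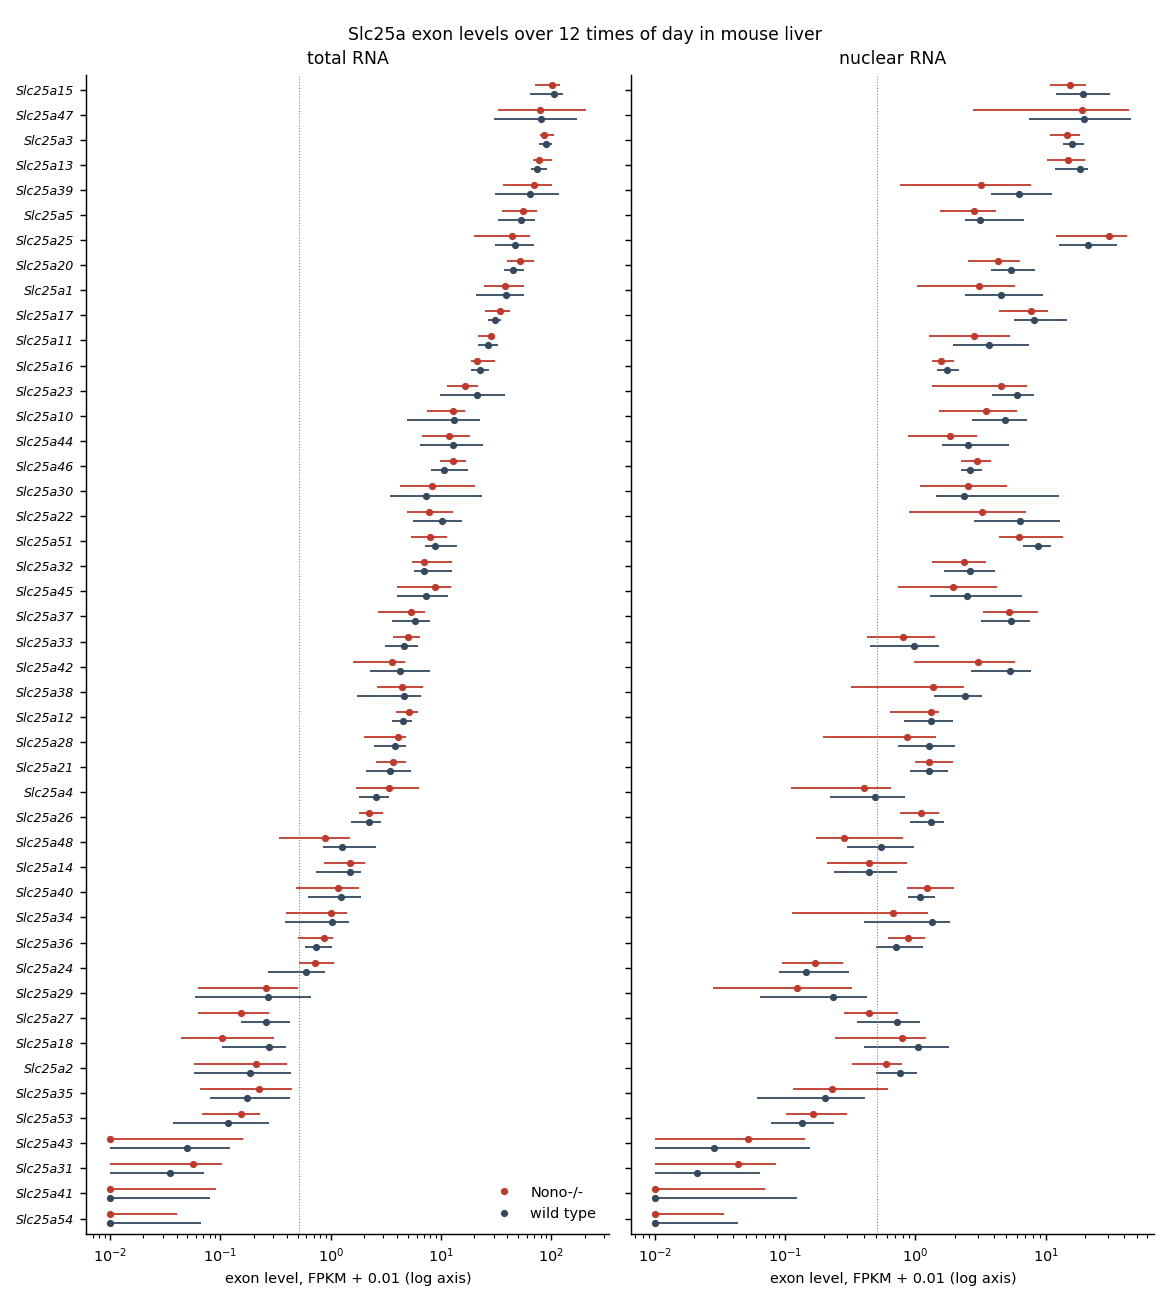
Exon level of Slc25a genes in total RNA (left) and nuclear RNA (right), in FPKM plus 0.01 on a log axis, ordered by the wild-type mean in total RNA. Points are medians and lines run from the lowest to the highest of 12 libraries, Nono-/- in red above wild type in dark blue, and the dotted line marks the filter of 0.5 FPKM. Slc25a15 tops total RNA at a median of 101 FPKM in Nono-/- and 105 FPKM in wild type. The ranges of both genotypes overlap for every gene drawn, which was not compared with all genes.

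A gene was tested in a fraction if its mean over both genotypes reached 0.5 FPKM in exons or 0.1 FPKM in introns. That kept 37 Slc25a genes for total RNA exons, 36 for nuclear RNA exons, 32 for total RNA introns and 40 for nuclear RNA introns. Slc25a31, Slc25a35, Slc25a41, Slc25a43 and Slc25a54 passed in none of these. Changes are log2 of Nono-/- over wild type over the whole day, with a standard error (SE), after scaling each library by the median of its gene ratios. A gene passed at a Benjamini-Hochberg adjusted p below 0.05 over all genes tested with limma. There was 1 pool per genotype and time, so the spread behind each test is that around the daily curve. As deposited, none of the 186 combinations of a Slc25a gene with exons or introns of a fraction had groups that did not overlap over the day. The same count was not made over all genes, so it cannot be read as a trait of the family.

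In total RNA exons, 4 of 37 Slc25a genes differed by genotype, all lower in Nono-/-, beside 11.1% of all tested genes that passed, 4.49% higher and 6.57% lower. The family's median change was -0.03, beside -0.00 over all 11352 genes tested. Slc25a48, a choline carrier, ran from 0.329 through a median of 0.868 to 1.47 FPKM in Nono-/- and from 0.845 through 1.27 to 2.57 FPKM in wild type. It was lower in Nono-/- at 10 of 12 times, with a change of -0.63 (SE 0.15, adjusted p = 0.0136), and the gap was widest at ZT0, ZT18 and ZT20. These Slc25a48 values rest on few reads, 271 in Nono-/- and 449 in wild type, each summed over 12 libraries. Slc25a23, a calcium-regulated ATP-Mg/phosphate carrier, ran from 11.2 through 16.3 to 21.7 FPKM in Nono-/- and from 9.71 through 21.3 to 38.0 FPKM in wild type. Its change was -0.40 (SE 0.11, adjusted p = 0.0252), it was lower at 10 of 12 times, and its Nono-/- values stayed below every wild-type value of ZT16 to ZT22.

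The NAD carrier Slc25a51 ran from 5.33 through 7.89 to 11.2 FPKM in Nono-/- and from 7.21 through 8.88 to 14.1 FPKM in wild type, a change of -0.35 (SE 0.09, adjusted p = 0.0183) and lower at 10 of 12 times. Slc25a37, mitoferrin-1, which brings iron to heme and iron-sulfur cluster synthesis, ran from 2.67 through 5.34 to 7.20 FPKM in Nono-/- and from 3.61 through 5.80 to 8.01 FPKM in wild type. It was lower at 11 of 12 times by a change of -0.27 (SE 0.08, adjusted p = 0.0401). Erythroid cells use much mitoferrin-1, and 0 of 5 tested erythroid markers passed. Their summed level was 41.3 to 135 FPKM in Nono-/- and 37.9 to 106 FPKM in wild type. The part of erythroid cells in the change of Slc25a37 was not tested. Without the libraries of ZT0, ZT14 or ZT16 the adjusted p of Slc25a23 reached 0.0564, without ZT0 or ZT18 that of Slc25a51 reached 0.0523, and Slc25a37 lost its call without any one of ZT2, ZT4, ZT6, ZT8, ZT12, ZT14, ZT16, ZT18 or ZT20 (up to 0.0998). With the intron share as a covariate 0 of 37 passed with limma (1 at an unadjusted p under 0.05, Slc25a44, beside 12.9% of all genes), and the 4 had changes of -0.10 to -0.41. Without scaling Slc25a23 did not pass (adjusted p = 0.0592). In GENCODE vM21, genes on the other strand overlap 14 of the 47 Slc25a genes, and their reads cannot be told apart in these tables. Among the 4 called here these are Slc25a23 (Crb3 and Gm17168) and Slc25a37 (Gm27222, Gm27223 and Gm31748). Slc25a10 (Gm11788), Slc25a26 (Lrig1) and Slc25a46 (B930094E09Rik), named below, are also among the 14.

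The transport groups of the family showed few differences in total RNA exons. Of the 7 tested aspartate, glutamate, malate and citrate carriers none passed, and their median change was -0.01. Among the 15 tested carriers of adenine nucleotides, phosphate, coenzyme A and other nucleotide cofactors, Slc25a23 and Slc25a51 were lower. The 7 tested carriers of ornithine, other amino acids, carnitine and choline held Slc25a48 alone among those lower, and the 4 iron and glutathione importers held Slc25a37. Neither of the 2 tested uncoupling protein relatives, Slc25a14 and Slc25a30, passed, nor did Slc25a34 or Slc25a46. Slc25a42, the coenzyme A carrier, had a change of -0.54 that did not pass (adjusted p = 0.0837), with 3.24 ± 1.18 FPKM in Nono-/- and 4.67 ± 1.78 FPKM in wild type.

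**Figure D2:**
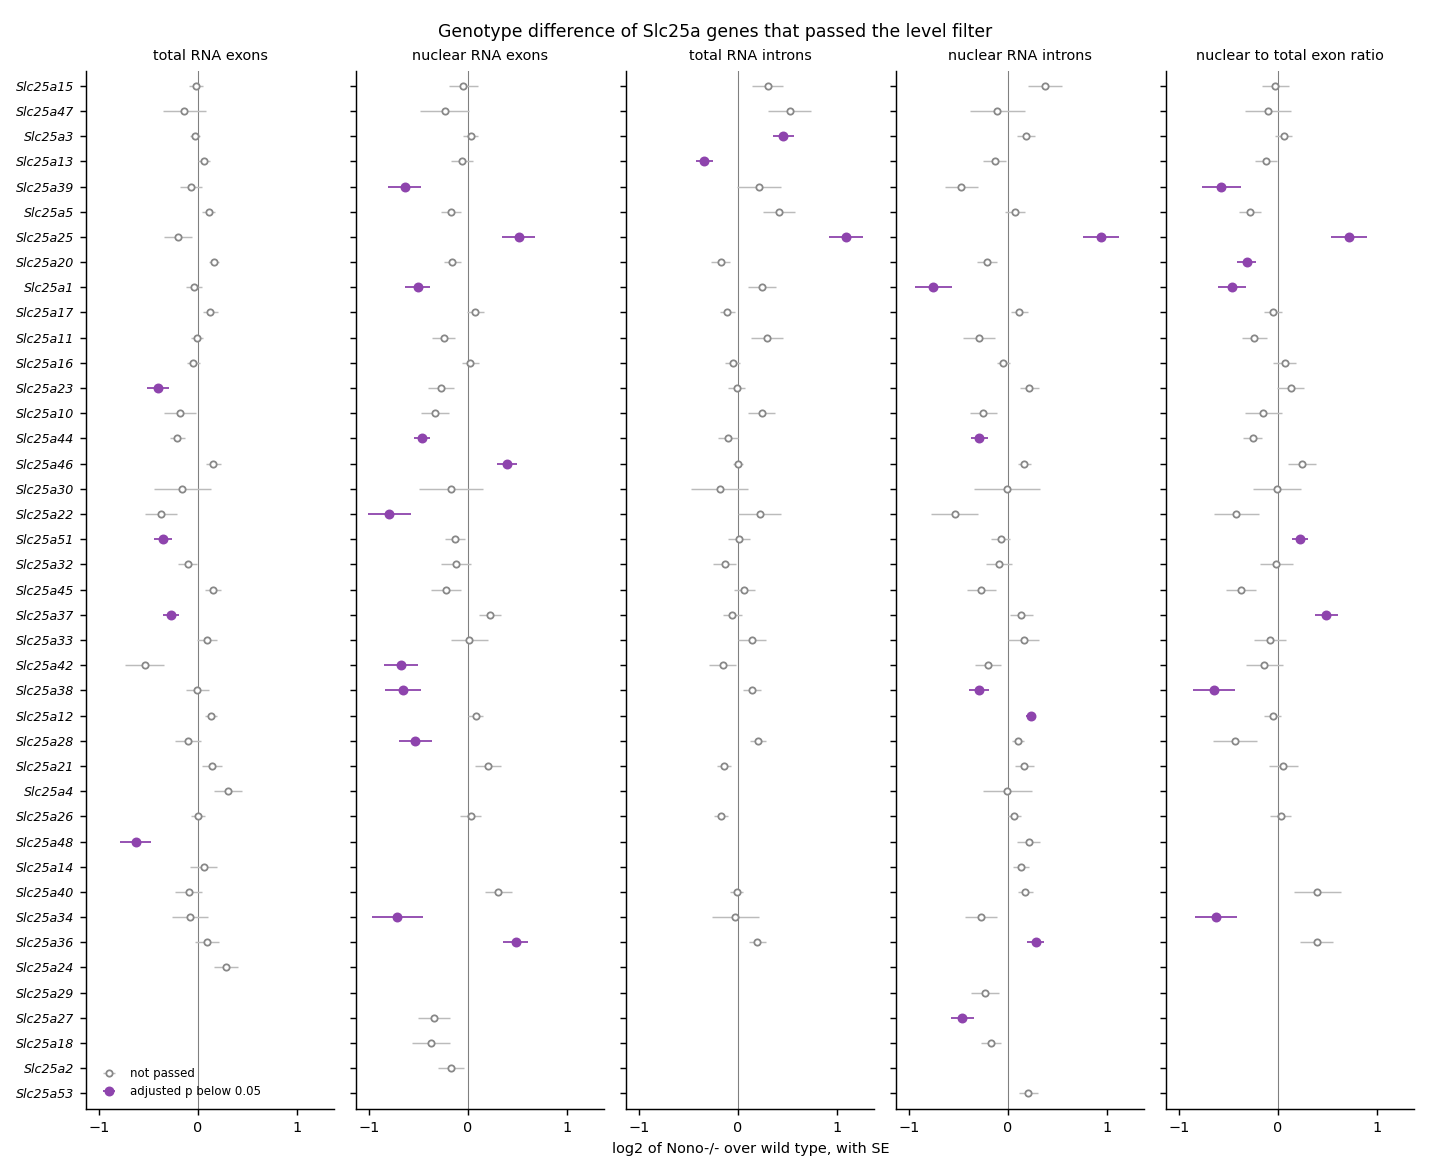
Genotype difference (log2 of Nono-/- over wild type, with SE) of Slc25a genes that passed the level filter, ordered by wild-type level, in total and nuclear exons, total and nuclear introns, and the nuclear to total exon ratio. Filled purple points passed at an adjusted p below 0.05 and open points did not. Slc25a25 is the furthest to the right in both intron panels, at 1.09 and 0.94, and all 4 filled points of total RNA exons lie left of 0.

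Slc25a25 showed the widest genotype difference of the family, and it lay in the introns. Slc25a25 encodes an ATP-Mg/phosphate carrier with calcium-binding EF-hands, and spans chr2:32414487-32424066 on the minus strand of mm10, with 3163 bases of exon and 6396 bases of intron in the tables. Its nuclear intron level ran from 12.9 (ZT22) through a median of 28.4 to 42.3 FPKM (ZT10) in Nono-/- and from 7.42 (ZT6) through 13.4 to 26.0 FPKM (ZT0) in wild type. The Nono-/- value was higher at 11 of 12 times as deposited and at 12 of 12 after scaling, and the genotypes lay close at ZT0, ZT2, ZT18 and ZT22 and far apart from ZT4 to ZT12. The change was 0.94 (SE 0.18, adjusted p = 0.00307), a fold of 1.92.

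Introns in total RNA gave the same direction for Slc25a25. Its level ran from 4.5 (ZT22) through 8.21 to 13.0 FPKM (ZT10) in Nono-/- and from 2.36 (ZT6) through 4.65 to 9.51 FPKM (ZT0) in wild type. This was a change of 1.09 (SE 0.17, adjusted p = 0.000807), a fold of 2.13, higher at 10 of 12 times as deposited (all but ZT0 and ZT18) and at 12 of 12 after scaling. Both intron results passed under all 18 alternatives run, with adjusted p-values of at most 0.0210 in total RNA and 0.0121 in nuclear RNA.

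Exons of Slc25a25 in total RNA showed no such difference past the threshold. Its total RNA exons ran from 19.9 (ZT10) through 44.1 to 63.7 FPKM (ZT2) in Nono-/- and from 30.6 (ZT22) through 46.9 to 70.3 FPKM (ZT12) in wild type, and the change of -0.21 did not pass (SE 0.14, adjusted p = 0.383). Nuclear exons lay between, from 12.0 through 30.8 to 42.0 FPKM in Nono-/- and from 12.6 through 21.1 to 35.4 FPKM in wild type, higher in Nono-/- at 8 of 12 times with a change of 0.51 (SE 0.17, adjusted p = 0.0271). The nuclear exon call was lost without ZT4, ZT6, ZT10, ZT16 or ZT20 (up to 0.0738), without scaling (0.209) and with the intron share as a covariate (0.0844). RefSeq lists 3 starts of Slc25a25, and the tables hold the most downstream of them, so introns before it were not counted.

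**Figure D3:**
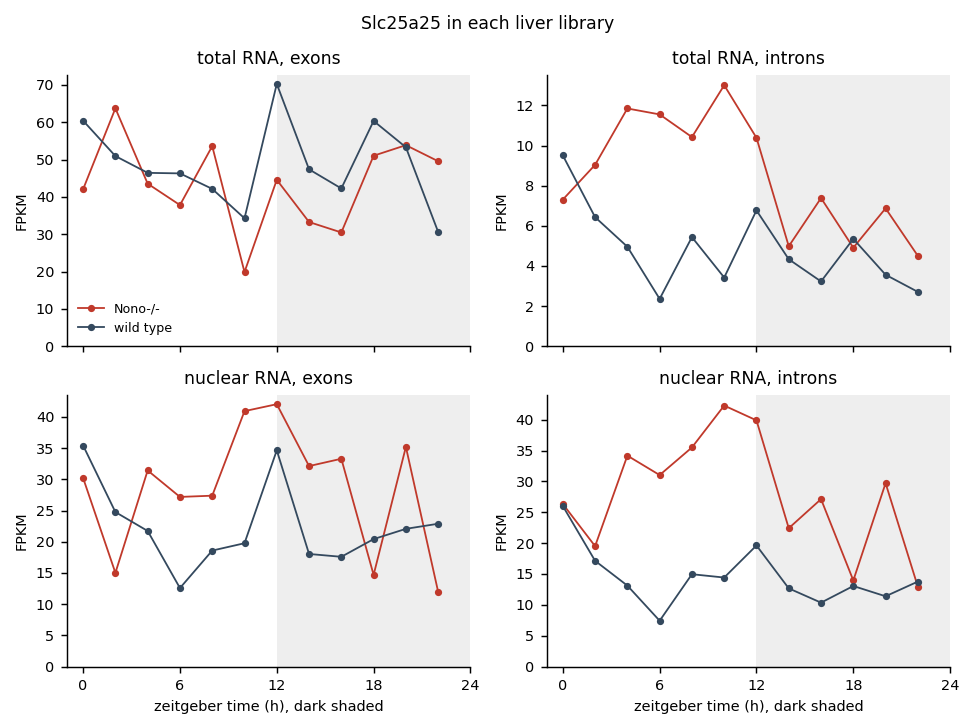
Slc25a25 level (FPKM as deposited) in exons (left) and introns (right) of total RNA (top) and nuclear RNA (bottom) against zeitgeber time, 1 point per library, Nono-/- in red and wild type in dark blue, dark phase shaded. The red lines of both intron panels stand over the dark blue ones from ZT4 to ZT12, up to 42.3 FPKM in nuclear RNA, while the exon lines of total RNA cross.

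The exon to intron ratio within a library, a comparison added after the data were seen, puts this in 1 value. For Slc25a25 it was lower in Nono-/- at 12 of 12 times, by -1.30 in total RNA (SE 0.15, adjusted p = 3.48e-05) and by -0.43 in nuclear RNA (SE 0.07, adjusted p = 0.000946). In total RNA 9 of 32 Slc25a genes passed, 7 of them lower, beside 7.06% of all genes tested either way and 4.01% lower. The other 6 that were lower were Slc25a47 (-0.66), the glutamate carrier Slc25a22 (-0.59), Slc25a3 (-0.49), the dicarboxylate carrier Slc25a10 (-0.43), Slc25a23 (-0.39) and Slc25a51 (-0.36), and Slc25a13 (0.40) and Slc25a20 (0.34) were higher. Total RNA of Nono-/- held a lower intron share (above), and with that share as a covariate 1 of the 9, Slc25a25, still passed (-1.58, adjusted p = 0.000233). Without scaling 8 passed, of which 3 were among the 9. Slc25a20 lost its call without any one of 9 of the 12 times (up to an adjusted p of 0.106). Slc25a51 lost its call without ZT6 (0.0516). In nuclear RNA 6 of 35 passed, beside 19.6% of all genes tested (10.8% lower). Slc25a28 (-0.63), Slc25a23 (-0.49), Slc25a42 (-0.48), Slc25a25 and Slc25a15 (-0.42) were lower, and Slc25a46 (0.23) was higher. The call of Slc25a46 was lost without any one of 5 of the 12 times (up to an adjusted p of 0.0775). It was also lost without scaling (0.542) and with the intron share as a covariate (0.198). With that covariate Slc25a28 did not pass either (0.107).

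In nuclear RNA exons, 11 of 36 Slc25a genes differed by genotype, beside 34.3% of all genes tested (15.9% higher and 18.5% lower), so that the family's count stood near the background. The members' median change was -0.17, beside 0.00 over all tested genes. The 8 lower in Nono-/- were Slc25a22 (-0.79), Slc25a34 (-0.71), Slc25a42 (-0.67), Slc25a38 (-0.65), Slc25a39 (-0.64), Slc25a28 (-0.53), Slc25a1 (-0.51) and Slc25a44 (-0.47). The 3 higher were Slc25a25, the pyrimidine nucleotide carrier Slc25a36 (0.48) and Slc25a46 (0.40). The call of Slc25a34 was lost without any one of 7 of the 12 times (up to an adjusted p of 0.122) and that of Slc25a28 without ZT6 or ZT22 (up to 0.0636). Values of Slc25a39 show the spread behind such a change. It ran from 0.753 (ZT2) through 3.19 to 7.67 FPKM (ZT14) in Nono-/- and from 3.78 (ZT0) through 6.25 to 11.1 FPKM (ZT20) in wild type, lower in Nono-/- at 11 of 12 times as deposited. The Nono-/- library of ZT2, which stood apart over all genes, was the lowest of its group for 11 of the 36, beside 25.2% of all genes. With the intron share as a covariate 1 of the 11 still passed, Slc25a44, and without scaling 19 Slc25a genes passed, 1 higher and 18 lower, with a shift of -0.20 in the median gene of the table.

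Slc25a44, which carries branched-chain amino acids into mitochondria, was the member whose nuclear exon difference held under all 18 alternatives. It ran from 0.861 (ZT2) through 1.84 to 2.94 FPKM (ZT14) in Nono-/- and from 1.60 (ZT8) through 2.53 to 5.21 FPKM (ZT20) in wild type. The change was -0.47 (SE 0.08, adjusted p = 0.00117), and the wild-type values of ZT16 to ZT22 lay above every Nono-/- value. Its nuclear introns were also lower in Nono-/-, by -0.29 (SE 0.08, adjusted p = 0.0236), a call lost without ZT2, ZT6, ZT18 or ZT20 (up to 0.0709) and with the intron share as a covariate (0.0611).

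In nuclear RNA introns 7 of 40 Slc25a genes passed, 3 higher and 4 lower, beside 17.9% of all genes tested (8.48% higher and 9.46% lower). After Slc25a25, the widest change was that of the citrate carrier Slc25a1. Its nuclear introns ran from 0.313 (ZT2) through 1.26 to 1.95 FPKM (ZT16) in Nono-/- and from 1.04 (ZT0) through 1.81 to 3.5 FPKM (ZT22) in wild type, a change of -0.75 (SE 0.19, adjusted p = 0.0101). The call held without each time in turn (up to 0.0323), the ZT2 library that stood apart included, and was lost with the intron share as a covariate (0.0598). Its total RNA exons did not pass (-0.04, adjusted p = 0.796), and neither did its total RNA introns. The total RNA introns averaged 4.502 ± 0.983 FPKM in Nono-/- and 4.551 ± 0.953 FPKM in wild type. They were higher in Nono-/- at 6 of 12 times as deposited. The nuclear intron values of Slc25a1 rest on few reads, 403 in Nono-/- and 551 in wild type, each summed over 12 libraries. Slc25a27, an uncoupling protein relative best known from brain, was lower at 12 of 12 times, from 0.142 through 0.232 to 0.299 FPKM in Nono-/- and from 0.243 through 0.341 to 0.475 FPKM in wild type. That change was -0.46 (SE 0.11, adjusted p = 0.010), and the gene's exons, at 0.137 ± 0.0576 FPKM in Nono-/- and 0.254 ± 0.0877 FPKM in wild type in total RNA, were too low there to be tested. Its nuclear exons did not pass (-0.34, adjusted p = 0.0977).

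The glycine carrier Slc25a38 was lower in nuclear introns (-0.29, adjusted p = 0.0476), a call lost without any one of 10 of the 12 times. Slc25a36 and Slc25a12 were higher. Slc25a36 ran from 0.369 through 0.483 to 0.624 FPKM in Nono-/- and from 0.316 through 0.414 to 0.517 FPKM in wild type, a change of 0.28 (SE 0.09, adjusted p = 0.0309) that was lost without ZT2, ZT6, ZT12 or ZT18 (up to 0.104). Slc25a12 had a change of 0.23 (SE 0.05, adjusted p = 0.00634), held under all 18 alternatives, and stood at 0.441 to 0.576 FPKM in Nono-/- and 0.355 to 0.565 FPKM in wild type. An antisense gene, Gm16185, overlaps Slc25a36, and the processed pseudogene Gm13641 lies in Slc25a12 on the other strand.

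In total RNA introns 3 of 32 passed, beside 16% of all genes tested (7.11% higher and 8.87% lower). Slc25a25 was joined by Slc25a3, at 6.02 to 9.72 FPKM in Nono-/- and 4.95 to 8.68 FPKM in wild type (0.46, SE 0.11, adjusted p = 0.00838), and by Slc25a13, at 0.527 to 1.73 FPKM in Nono-/- and 0.866 to 1.93 FPKM in wild type (-0.34, SE 0.09, adjusted p = 0.0136). Without scaling the change of Slc25a3 was 0.20 (adjusted p = 0.0585), and with the intron share as a covariate neither Slc25a3 nor Slc25a13 passed (0.580 and 0.405).

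**Figure D4:**
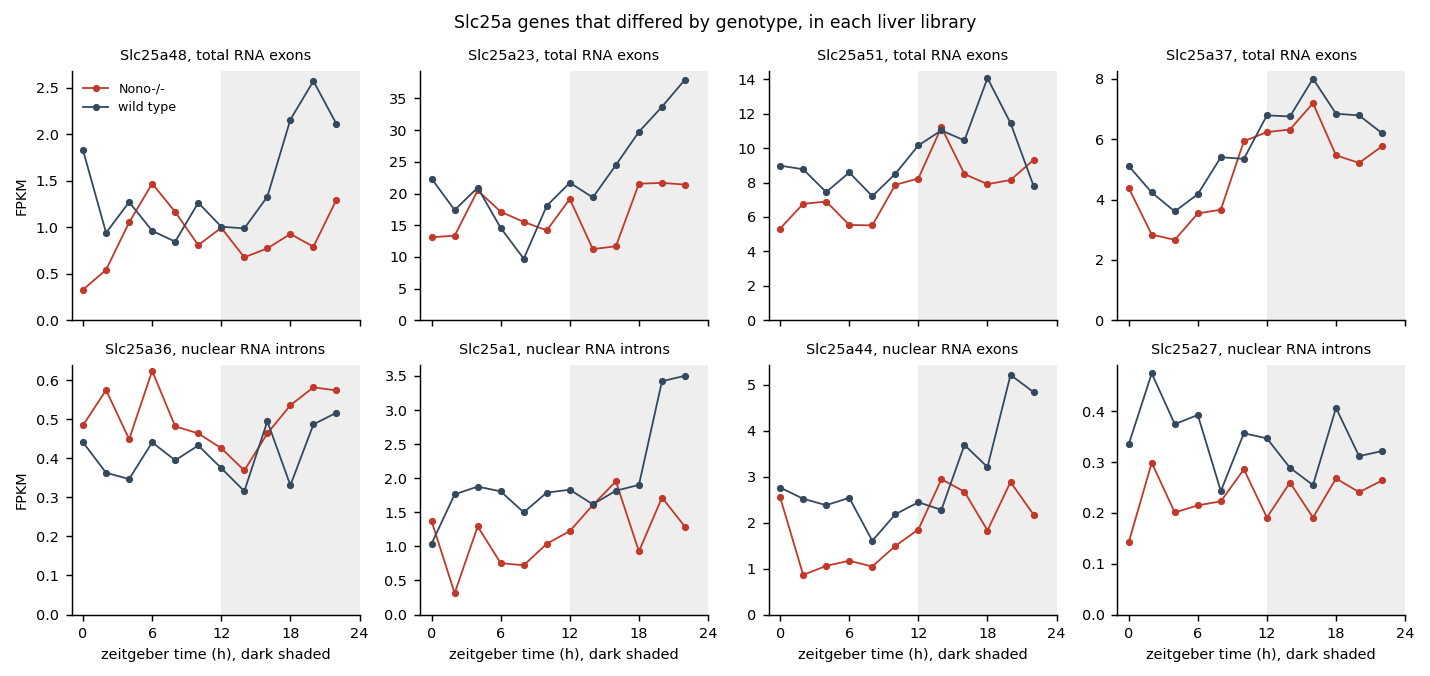
Level (FPKM as deposited) against zeitgeber time of 8 Slc25a genes that differed by genotype, in total RNA exons (top row), in nuclear RNA introns (Slc25a36, Slc25a1 and Slc25a27) and in nuclear RNA exons (Slc25a44), 1 point per library, Nono-/- in red and wild type in dark blue, dark phase shaded. Wild-type Slc25a48, Slc25a23 and Slc25a44 climb late in the dark, to 2.57, 38.0 and 5.21 FPKM, where the red lines stay lower.

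Of the 5 Slc25a genes that passed in the same direction in nuclear exons and nuclear introns, 4 have a promoter entry in RefSeq (GRCm38.p6), and their 250 bases before the start are printed because exons and introns moved together there. They are given 5′ to 3′ in the direction of the gene, with capitals for the E-box CACGTG, bound by clock factors, and for the cAMP response element TGACGTCA.
Slc25a25 (higher, chr2:32424067-32424316, minus strand): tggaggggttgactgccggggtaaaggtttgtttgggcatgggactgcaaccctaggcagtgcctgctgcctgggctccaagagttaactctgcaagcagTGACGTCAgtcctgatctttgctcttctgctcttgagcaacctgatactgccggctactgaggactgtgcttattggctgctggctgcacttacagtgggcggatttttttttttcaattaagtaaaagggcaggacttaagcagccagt
Slc25a36 (higher, chr9:97111042-97111291, minus strand): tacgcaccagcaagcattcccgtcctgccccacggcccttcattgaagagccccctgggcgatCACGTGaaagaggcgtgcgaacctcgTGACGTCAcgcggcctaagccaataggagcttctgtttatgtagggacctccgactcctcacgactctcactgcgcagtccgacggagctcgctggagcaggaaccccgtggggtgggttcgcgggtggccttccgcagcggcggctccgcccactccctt
Slc25a1 (lower, chr16:17928220-17928469, minus strand): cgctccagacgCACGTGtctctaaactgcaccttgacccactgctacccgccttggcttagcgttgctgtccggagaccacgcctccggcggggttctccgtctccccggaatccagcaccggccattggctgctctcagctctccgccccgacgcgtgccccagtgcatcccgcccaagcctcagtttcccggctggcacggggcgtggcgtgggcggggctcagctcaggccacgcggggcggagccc
Slc25a38 (lower, chr9:120110132-120110381, plus strand): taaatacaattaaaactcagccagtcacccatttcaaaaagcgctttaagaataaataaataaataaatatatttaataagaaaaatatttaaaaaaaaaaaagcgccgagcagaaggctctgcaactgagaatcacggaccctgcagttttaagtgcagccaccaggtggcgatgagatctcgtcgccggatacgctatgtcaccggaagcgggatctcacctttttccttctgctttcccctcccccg

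TGACGTCA stood in 2 of 36 Slc25a promoters (Slc25a25 and Slc25a36), against 1.55% of all 32851 promoters of the same length, both strands searched. CACGTG stood in 5 of 36 (Slc25a1, Slc25a13, Slc25a31, Slc25a33 and Slc25a36) against 6.02% of all promoters. AGGTCA, a core motif of nuclear receptors, was in 4 of 36, those of Slc25a34, Slc25a39, Slc25a45 and Slc25a47, against 14.0% of all. TTATGTAA, a D-box, and the NRF1 motif were in 0 of the 36, against 0.819% and 0.782% of all. A match is a run of letters and no measure of binding, and the motifs were chosen with the results known.

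The nuclear to total exon ratio of the same liver ranged widely in the family. In wild type Slc25a5 had the lowest, with a log2 ratio of -4.02 ± 0.258, at percentile 3.04 of the 9871 genes tested, and Slc25a42 the highest, at 0.10 ± 0.625 (SD, n = 12). The median of the 33 tested Slc25a genes was -1.85 in Nono-/- and -1.66 in wild type, beside -1.34 and -1.32 over all genes, and 24 of the 33 lay under the median gene in Nono-/- and 22 in wild type. The genotypes differed in 8 of 33, beside 19.8% of all genes tested (10.8% higher and 9.0% lower). Slc25a25 (0.72, adjusted p = 0.0152), Slc25a37 (0.49, adjusted p = 0.00982) and Slc25a51 (0.22, adjusted p = 0.0491) were higher in Nono-/-, and Slc25a38 (-0.64), Slc25a34 (-0.63), Slc25a39 (-0.57), Slc25a1 (-0.47) and Slc25a20 (-0.32) were lower.

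Slc25a37 had a log2 ratio of 0.27 ± 0.445 in Nono-/- and -0.22 ± 0.356 in wild type, higher in Nono-/- at 11 of 12 times, and Slc25a20 had -3.48 ± 0.225 in Nono-/- and -3.16 ± 0.192 in wild type, lower at 12 of 12. Slc25a20 passed in neither fraction alone, with a change of 0.16 in total exons (adjusted p = 0.0604) and -0.16 in nuclear exons (adjusted p = 0.164). The ratio calls of Slc25a25 and Slc25a37 stood without each of the 12 times in turn, with adjusted p-values up to 0.0431 and 0.0271, and were lost without scaling (0.123 and 0.0835). The other 6 were each lost without at least 4 of the 12 times, and without ZT2, ZT6, ZT8 or ZT22 the calls left were 2 of the 8. With time as a block for the pairing of the pools, Slc25a20, Slc25a25 and Slc25a37 still passed, and Slc25a1 (adjusted p = 0.0599), Slc25a34 (0.123), Slc25a38 (0.0623), Slc25a39 (0.1103) and Slc25a51 (0.0664) did not.

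Daily rhythms were fitted as 24 h curves. In total RNA exons 14 of 37 Slc25a genes were rhythmic in Nono-/-, beside 29.6% of all genes, and 14 of 37 in wild type, beside 31.8%. Of these, 10 in Nono-/- and 12 in wild type had a fold of 1.5 or more between peak and trough, beside 21.4% and 24.0% of all genes. The fitted peak lay in the dark, from ZT12 to ZT24, for 12 of the 14 in Nono-/- and 11 of the 14 in wild type, against 53.2% and 51.6% of all rhythmic genes. Both genotypes passed for 7 genes, Slc25a5, Slc25a32, Slc25a37, Slc25a44, Slc25a45, Slc25a46 and Slc25a51. Over these the peak was later in Nono-/- for 5, with a median shift of 1.45 h. Of all 1961 genes rhythmic in both, 76.0% had a later peak in Nono-/-, and the median shift was 1.15 h.

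The earliest peaks among these 7 were those of Slc25a46 and Slc25a32. Slc25a46 exons peaked at ZT10.8 in Nono-/- (fold 1.56) and at ZT7.60 in wild type (fold 1.75), and ran from 9.74 to 17.0 FPKM in Nono-/- and from 8.17 to 17.4 FPKM in wild type. The folate carrier Slc25a32 peaked at ZT12.8 in Nono-/- (fold 2.03, adjusted p = 0.00141) and at ZT10.2 in wild type (fold 2.09, adjusted p = 0.000791), with a lowest value of 5.43 FPKM in Nono-/- and 5.67 FPKM in wild type and a highest of 12.6 FPKM in each. Slc25a37 peaked at ZT15.6 in Nono-/- (fold 2.32, adjusted p = 0.000112) and at ZT16.1 in wild type (fold 1.83, adjusted p = 0.00192). Slc25a51 followed at ZT16.03 in Nono-/- and ZT16.9 in wild type. Its wild-type rhythm passed in 4 of the 12 fits that left out 1 time (up to an adjusted p of 0.161).

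Late in the dark came Slc25a44, at ZT21.7 in Nono-/- (fold 1.86, adjusted p = 0.000690) and at ZT20.2 in wild type (fold 2.29, adjusted p = 2.24e-05). Its exons in total RNA ran from 6.71 to 18.3 FPKM in Nono-/- and from 6.40 to 23.9 FPKM in wild type. Slc25a45 peaked beside it, at ZT21.5 in Nono-/- (fold 1.97) and ZT20.2 in wild type (fold 2.11), and Slc25a5 at ZT21.9 in Nono-/- (fold 1.34) and ZT19.1 in wild type (fold 1.5). The wild-type peaks of Slc25a1 (ZT20.1, fold 1.54), Slc25a23 (ZT19.7, fold 2.32), Slc25a38 (ZT19.5, fold 1.90), Slc25a39 (ZT19.5, fold 1.99) and Slc25a48 (ZT20.4, fold 2.20) lay in the same hours, and these 5 did not pass in Nono-/-.

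Many late-dark members also shared their lowest library. In wild-type total RNA the ZT8 library, which stood apart over all genes, held the minimum of 13 of the 37, beside 25.6% of all genes. Among the 13 were Slc25a1, Slc25a5, Slc25a23, Slc25a38, Slc25a39, Slc25a44 and Slc25a45. In Nono-/- total RNA the ZT10 library held the minimum of 9 of the 37, beside 14.5% of all genes. Without ZT8, 9 Slc25a genes were rhythmic in wild type instead of 14, and 8 of the 14 passed again. Slc25a1 (adjusted p = 0.116), Slc25a38 (0.0981) and Slc25a39 (0.0553) were among those lost without ZT8, while Slc25a23, Slc25a44 and Slc25a45 passed without each time in turn.

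The widest fitted curve of the family in total RNA exons was that of Slc25a47 in both genotypes. Its exons in total RNA ran from 32.6 (ZT0) through 78.1 to 205 FPKM (ZT6) in Nono-/- and from 30.3 (ZT0) through 81.2 to 171 FPKM (ZT6) in wild type. The fitted peak was ZT7.91 in Nono-/- (fold 3.49, adjusted p = 0.0123) and ZT8.29 in wild type (fold 2.60, adjusted p = 0.0524). Slc25a47 nuclear introns peaked at ZT10.3 in Nono-/- (fold 7.58, adjusted p = 0.00294), from 2.28 (ZT22) to 43.6 FPKM (ZT12), and the wild-type fit did not pass (fold 3.49, adjusted p = 0.0630), from 4.75 (ZT18) to 32.3 FPKM (ZT10). Slc25a3, Slc25a13, Slc25a16, Slc25a17 and Slc25a20 also passed in Nono-/- with no call in wild type, with folds of 1.29 to 1.56 and peaks from ZT13.4 to ZT18.9. Slc25a20 peaked at ZT16.4 in Nono-/- (fold 1.56, adjusted p = 0.000819), against a fold of 1.24 in wild type (adjusted p = 0.0825). Slc25a15 peaked at ZT23.5 in wild type (fold 1.54, adjusted p = 0.00805) and Slc25a26, the S-adenosylmethionine carrier, at ZT7.06 (fold 1.39, adjusted p = 0.0431). When 1 time was left out, Slc25a26 in wild type passed in 4 of 12 fits (up to 0.178). Slc25a17 in Nono-/- passed in 5 of 12 (up to 0.122).

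A difference in rhythm between the genotypes was tested directly and passed for 0 of 37 Slc25a genes with limma (lowest adjusted p = 0.463), and for 0 of all 11352 genes. At an unadjusted p under 0.05 there were 7 members, Slc25a4, Slc25a20, Slc25a23, Slc25a26, Slc25a32, Slc25a46 and Slc25a48, beside 10.7% of all genes. A rhythm that passed in 1 genotype is therefore not shown to differ from the other.

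**Figure D5:**
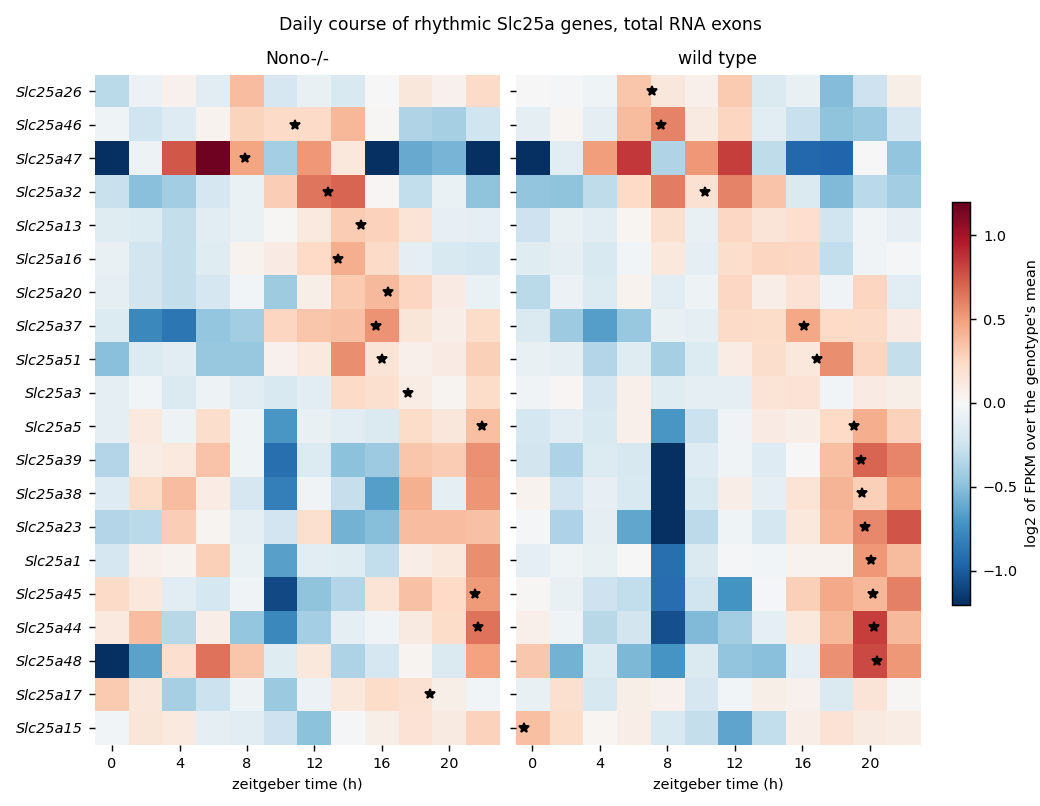
Daily course of Slc25a genes rhythmic in total RNA exons of either genotype, ordered by the wild-type peak, in Nono-/- (left) and wild type (right). Colour is log2 of FPKM over the genotype's own mean (red high, blue low, full colour at 1.2 and beyond), columns are zeitgeber times, and a star marks the fitted peak where the rhythm passed. The blue columns at ZT10 in Nono-/- and at ZT8 in wild type are the libraries that held the minimum of 9 and 13 of the 37 Slc25a genes tested, beside 14.5% and 25.6% of all genes.

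In nuclear introns 13 of 40 Slc25a genes were rhythmic in Nono-/-, beside 32.0% of all genes, and 5 of 40 in wild type, beside 21%. The difference in rhythm passed for 0 of 40 with limma (lowest adjusted p = 0.726) and for 0 of all 12055 genes, with 5 members at an unadjusted p under 0.05, beside 6.73% of all genes. Slc25a18, a glutamate carrier, Slc25a20 and Slc25a26 passed in both, with peaks at ZT7.94, ZT11.7 and ZT7.66 in Nono-/- and ZT7.01, ZT8.64 and ZT7.20 in wild type. After Slc25a47, the widest intron curves among the 13 in Nono-/- were those of Slc25a39 (fold 3.24, peak ZT14.0) and Slc25a22 (fold 3.12, peak ZT9.09). The fitted peak lay in the dark for 4 of the 13 in Nono-/- and 0 of the 5 in wild type, beside 49.6% and 52.1% of all rhythmic genes. Where introns and exons were both rhythmic in a genotype, the exon peak followed the intron peak by 2.75 h for Slc25a51, 4.06 h for Slc25a44, 4.67 h for Slc25a20 and 6.87 h for Slc25a5 in Nono-/- and by 2.65 h for Slc25a32 in wild type. The exon rhythm of Slc25a5 in Nono-/- was lost without any one of 9 of the 12 times (up to an adjusted p of 0.234). When 1 time was left out, the Nono-/- intron rhythm of Slc25a20 passed in 7 of 12 fits (up to 0.0779). That of Slc25a5 passed in 9 of 12 (up to 0.0868) and that of Slc25a22 in 8 of 12 (up to 0.120). That of Slc25a39 passed in 12 of 12, and its lowest value (0.277 FPKM) lay in the ZT2 library that stood apart. Slc25a47 in Nono-/- (-2.42 h) and Slc25a26 in wild type (-0.14 h) had the exon peak first.

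Genes that work beside the carriers were read from 6 lists. Of 13 malate-aspartate and citrate shuttle enzymes, the malic enzyme Me1 (-0.57, adjusted p = 0.00538) and Ogdh (-0.30, adjusted p = 0.0161) were lower in Nono-/- in total RNA exons and Mdh1 was higher (0.20, adjusted p = 0.0198). Of all genes tested there, 6.57% were lower and 4.49% higher. In nuclear exons, where 18.5% of all genes were lower and 15.9% higher, 9 of the 13 were lower and none higher, with a median change of -0.42, beside 0.00 over all genes. Of the 6 urea cycle enzymes none passed in total exons, and Nags (-0.84), Ass1 (-0.63) and Asl (-0.95) were lower in nuclear exons. No carnitine shuttle partner of 6 passed in total exons, and Cpt1a (-0.47), Cpt2 (-0.23) and Crat (-0.66) were lower in nuclear exons. All 6 were rhythmic in total exons in both genotypes, beside 29.6% of all genes in Nono-/- and 31.8% in wild type.

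Among genes of the TIM22 pathway, Timm8b was higher in total exons (0.27, adjusted p = 0.0207) and Timm10 (-0.63) and Timm13 (-0.66) were lower in nuclear exons, of 9 and 7 tested. Nuclear introns were higher for Agk (0.32) and Tomm70a (0.21), of 8, and total RNA introns for Timm22 (0.44), of 8. Of all genes tested, 4.49% were higher in total exons, 8.48% in nuclear introns and 7.11% in total introns. In nuclear exons 18.5% of all genes were lower. Of 10 other transporters of the mitochondrial membranes none passed in total exons, and Sfxn2 (-0.24) and Letm1 (-0.53) were lower in nuclear exons. Of 3 carrier family genes with other names none passed in total exons, and Ucp2 (-0.69) and Mtch1 (-0.66) lower in nuclear exons.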

How the data were processed

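Total and nuclear RNA of mouse liver were sequenced after removal of ribosomal RNA with a stranded kit, per the labels' protocols. Tools listed per the submitters' processing notes are STAR 2.4.0k and FastQC 0.11.2, with build mm10. Per the file headers, the authors made the FPKM values with HOMER, once from exonic and once from intronic reads of a gene, and the command shows no strand option. The version of HOMER was not given in the sources used here. Dividing by gene length and the value of 1 read gave whole reads for 100% of the values checked, within 0.1 read.

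From the FPKM values, log2(FPKM/size factor + pseudocount) was computed, where the pseudocount was 0.1 (exons) or 0.05 (introns), which understates changes of low genes. limma 3.58.1 with trend (R 4.3.3) was fitted per fraction to all genes past the filter, with genotype, a 24 h cosine and sine and their products. The nuclear to total ratio was fitted per liver. p-values were adjusted over all genes tested at a threshold of 0.05. The fit was tested on data simulated after total RNA exons alone, and not for nuclear RNA, introns or the ratios. Same-numbered pools of both genotypes share a collection time. Their deviations from the group mean correlated over 0.1 in 12 of 12 pairs, save nuclear exons (11 of 12). These deviations include the daily curve, so pairing beyond a shared rhythm was not measured.

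The Slc25a genes and the other lists were chosen with earlier results of these data known. Named in full are the 10 highest members in wild-type total RNA, members past the threshold for genotype, ratio or rhythm with a fold of at least 1.5, and genes of the lists past the threshold. Replicates are pools at different times, so p-values measure the spread around the daily curve. Alternatives were the pseudocount, the filter, the scaling, each time left out, time as a block, a 12 h harmonic and the intron share as a covariate. Promoters came from RefSeq (GRCm38.p6), with 36 of 47 members matched and 30 of these at the start in the tables. Some values of the family are not reported here. Figures were drawn with matplotlib 3.10.9.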

Additional observations from a re-analysis of the deposited data

Results flagged for a closer look

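For 8 Slc25a genes the genotype effect differed between nuclear and total RNA exons of the same livers in the test of the difference itself. The nuclear minus total effect on the log2 scale was 0.72 for Slc25a25, 0.49 for Slc25a37 and 0.22 for Slc25a51. It was -0.32 for Slc25a20, -0.47 for Slc25a1, -0.57 for Slc25a39, -0.63 for Slc25a34 and -0.64 for Slc25a38. The Nono-/- nuclear library of ZT2, which stood apart over all genes, held the lowest nuclear exon value of its group for Slc25a1, Slc25a34, Slc25a38 and Slc25a39. The calls of these 4 were lost without ZT2, but also without any one of ZT6, ZT8, ZT12, ZT18 or ZT22. The part of the ZT2 library in these differences was not tested. With time as a block, the differences of Slc25a1, Slc25a34, Slc25a38, Slc25a39 and Slc25a51 did not pass (adjusted p of 0.0599 to 0.123).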

How the results depend on the processing

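With the intron share as a covariate, 0 Slc25a genes differed by genotype in total exons, 1 in nuclear exons, 1 in total introns, 4 in nuclear introns and 1 in the exon to intron ratio of total RNA. Without scaling, 19 passed in nuclear exons, 9 in total introns and 18 in the nuclear exon to intron ratio. A filter 4 times stricter left 7 in nuclear exons, and no filter left 4 in the nuclear to total ratio. With each time point as a replicate block, 6 passed in total introns, 3 in the nuclear to total ratio and 10 in the nuclear exon to intron ratio, and the other counts moved by no more than 1.5 times, to 6 in total exons, 12 in nuclear exons and 8 in nuclear introns. Leaving out 1 time gave 2 to 5 genes in total exons, 8 to 14 in nuclear exons, 3 to 4 in total introns, 4 to 12 in nuclear introns and 2 to 14 in the nuclear to total ratio. It gave 10 to 18 rhythmic genes in Nono-/- total exons, 9 (without ZT8) to 18 in wild-type total exons, 10 to 20 in Nono-/- nuclear introns and 4 to 7 in wild-type nuclear introns. The highest counts of nuclear introns and of the ratio came without ZT0. The ratio also gave 3 without ZT12 or ZT18 and 4 without ZT20. The Slc25a51 ratio turned to -0.0089 without scaling (adjusted p = 0.944). The cause of these moves was not tested. The level filter kept 10 of 47 Slc25a genes in total exons and 11 of 47 in nuclear exons out of the tests.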
